A study of Rattus norvegicus with 9 samples.

Results

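Lysosomal genes are described here across pancreatic stellate cells grown on 3 surfaces. The 37 genes were listed by name as cathepsins, acid hydrolases, lysosomal membrane proteins, proton pump subunits and the regulator Tfeb, and all 37 were measured, out of 14506 genes. Stellate cells resemble fibroblasts and lay down matrix in pancreatic fibrosis and around tumours. The cells came from male Sprague Dawley rats, were isolated on a Nycodenz density gradient and were seeded at equal number in 10 cm dishes, in Iscove's medium with 10% foetal bovine serum. They were kept for 72 hours on uncoated plastic (4 arrays), on collagen I, the fibrillar collagen of scar tissue (3 arrays), or on Matrigel, a basement membrane extract (2 arrays). No agent or genetic change separates the groups, and separate or pooled animals behind the arrays are not stated in the labels. A letter in each sample title, whose meaning the labels do not give, names the arrays below: A, P, S and Z on plastic, A, P and Z on collagen I, and A and S on Matrigel.

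Lysosomes are the acidic compartments in which cells degrade proteins, glycans and lipids delivered by endocytosis, phagocytosis and autophagy. Hydrolases made in the endoplasmic reticulum reach them through mannose 6-phosphate receptors, a proton pump acidifies the lumen, and heavily glycosylated proteins line the membrane. The factor TFEB drives many of these genes through E-box sites known as the CLEAR element. In stellate cells and fibroblasts lysosomal proteases also take part in the breakdown of collagen, and in the pancreas cathepsin B is known for activating trypsinogen. Lysosomal genes are known to be abundant in macrophages, so macrophage markers are given beside them.

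Promoter sequences are shown because TFEB sites are a feature that the list of genes did not use. RefSeq promoters on build GRCr8 (250 bases before to 50 after the start of transcription) were matched by gene identifier for 29 of the 37 genes. The 8 without an entry were Arsa, Arsb, Asah1, Atp6v1h, Ctsb, Hexa, Ppt1 and Psap. The E-box core CACGTG, which reads alike on both strands, was present in 8 of the 29 (27.6%) and in 6.42% of all 33469 promoters. The longer CLEAR-type site, GTCACGTG or its reverse complement CACGTGAC, which contains that core, was present in 7 of the 29 (24.1%: Atp6v0d1, Cln3, Ctsd, Gaa, Glb1, Lamp1 and Mcoln1) and in 1.85% of all promoters. Among the 12518 promoters of genes tested on the arrays the shares were 7.76% and 2.88%. Stretches upstream of the start are printed 5′ to 3′ on the gene's strand, with each E-box core in capitals. Gla and Lipa are added because they are the genes that passed the test between surfaces.
Lamp1, membrane glycoprotein (chr16:83075084-83075263, minus strand, 5 cores): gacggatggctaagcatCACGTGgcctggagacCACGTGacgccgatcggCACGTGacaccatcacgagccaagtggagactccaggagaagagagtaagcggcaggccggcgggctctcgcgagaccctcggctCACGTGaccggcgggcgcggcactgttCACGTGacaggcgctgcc
Ctsd, cathepsin D (chr1:206968822-206968851, minus strand): tccgcccctcgcccgcgtctCACGTGaccc
Gaa, acid alpha-glucosidase (chr10:105028271-105028310, plus strand): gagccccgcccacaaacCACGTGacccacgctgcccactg
Mcoln1, mucolipin calcium channel (chr12:6358218-6358257, plus strand): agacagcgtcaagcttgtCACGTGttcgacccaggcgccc
Cln3, Batten disease protein (chr1:190597950-190598009, minus strand): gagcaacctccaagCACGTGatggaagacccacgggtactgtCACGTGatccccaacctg
Atp6v0d1, proton pump subunit (chr19:50357279-50357318, minus strand): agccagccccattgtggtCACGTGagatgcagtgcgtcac
Gla, alpha-galactosidase A (chrX:102073916-102074015, minus strand, no core): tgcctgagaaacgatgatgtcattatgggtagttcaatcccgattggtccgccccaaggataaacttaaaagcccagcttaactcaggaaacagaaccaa
Lipa, lysosomal acid lipase (chr1:241470741-241470840, minus strand, no core): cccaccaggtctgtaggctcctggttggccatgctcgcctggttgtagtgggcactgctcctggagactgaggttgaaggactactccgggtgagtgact
A match or its absence describes these letters and says nothing of binding. Against plastic, the 7 genes with a CLEAR-type site differed on Matrigel by a median of 0.23 on the log2 scale (range -0.24 to 0.76) and the other 22 genes with a promoter by 0.12 (range -0.46 to 1.19). On collagen I those medians were -0.03 and -0.02. The ranges of the genes with and without a site overlapped on both surfaces.

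The arrays showed stellate cell genes together with RNA of other pancreatic cells. Values are the authors' log2 expression values. Across the 9 arrays the collagen gene Col1a1 lay between 12.45 and 12.95, the vimentin gene Vim between 12.09 and 12.68, the smooth muscle actin gene Acta2 between 8.95 and 11.33 and the desmin gene Des between 4.83 and 6.89. The leukocyte gene Ptprc lay between 4.84 and 6.61 and the macrophage sialomucin gene Cd68 between 7.21 and 10.01. The mean of 26 macrophage and leukocyte markers ranged from 5.74 to 6.92 on plastic, from 5.67 to 6.53 on collagen I and from 6.82 to 7.20 on Matrigel. Of these 26 markers 2 passed the test between Matrigel and plastic, both higher on Matrigel (Itgam and Laptm5), beside 10.4% of all genes. On Matrigel 22 of the 26 differences from plastic were positive, with a median of 0.87, and 11 had an unadjusted p under 0.05, beside 24.1% of all genes. Between collagen I and plastic 0 passed by limma, beside 6.12% of all genes, and 3 had an unadjusted p under 0.05, beside 19.0% (median difference -0.25). Marco and Vsig4 were dim on every array. In such bulk cultures more cells of a type and more RNA per cell cannot be told apart. Islet markers (12 measured, 7 higher on Matrigel than on plastic) and acinar markers (14 measured, 3 higher) moved as well, as did adipocyte markers (9 measured, 3 higher: Fabp4, Cidec and Plin1). Of 14 stellate cell and fibroblast markers 4 fell on Matrigel against plastic (Des, Thy1, Lum and Col3a1, by 1.93, 2.04, 2.43 and 0.93) and 1 rose (Fn1, by 0.35). Of all genes 5.85% passed as lower and 4.52% as higher on Matrigel. The part of these cell types in the lysosomal values was not tested. A fit with the macrophage mean as a covariate is given below, but it cannot tell which cells supplied the RNA.

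Few lysosomal genes passed the test between surfaces. Of 14506 genes tested with limma, 10.4% passed an adjusted p of 0.05 (Benjamini-Hochberg) between Matrigel and plastic, with 4.52% above and 5.85% below plastic. Between collagen I and plastic 6.12% passed, 2.95% higher and 3.17% lower on collagen I, and between Matrigel and collagen I 2.67% passed, 1.21% higher and 1.45% lower on Matrigel. Of the 37 lysosomal genes 1 passed between Matrigel and plastic (Gla, lower on Matrigel), 1 between collagen I and plastic (Lipa, lower on collagen I) and 0 between Matrigel and collagen I. Unadjusted p-values under 0.05 were found for 15 of the 37 on Matrigel against plastic (24.1% of all genes), 9 on collagen I against plastic (19.0% of all genes) and 8 on Matrigel against collagen I (16.9% of all genes). The median difference of the 37 genes was 0.13 on Matrigel against plastic (all genes -0.01), -0.02 on collagen I against plastic (all genes 0.00) and 0.10 on Matrigel against collagen I (all genes -0.02). The comparisons share arrays, so they are not separate evidence. Each of the 37 genes lay above log2 4.25, the 40th percentile of mean level, on all 9 arrays, a rank among genes and not a test of detection. Tfeb was the nearest to it, with 4.57 on plastic array Z. The 95% interval of the difference had a median half-width of 0.37 for Matrigel and of 0.33 for collagen I against plastic. The whole interval lay within 1 log2 unit, that is a change under 2-fold, for 30 of 37 genes on Matrigel (90.5% of all genes) and 33 of 37 on collagen I (93.0% of all genes) against plastic, and for 30 of 37 on Matrigel against collagen I (92.5% of all genes). A difference that missed the threshold does not show that the surfaces gave equal levels.

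**Figure D1:**
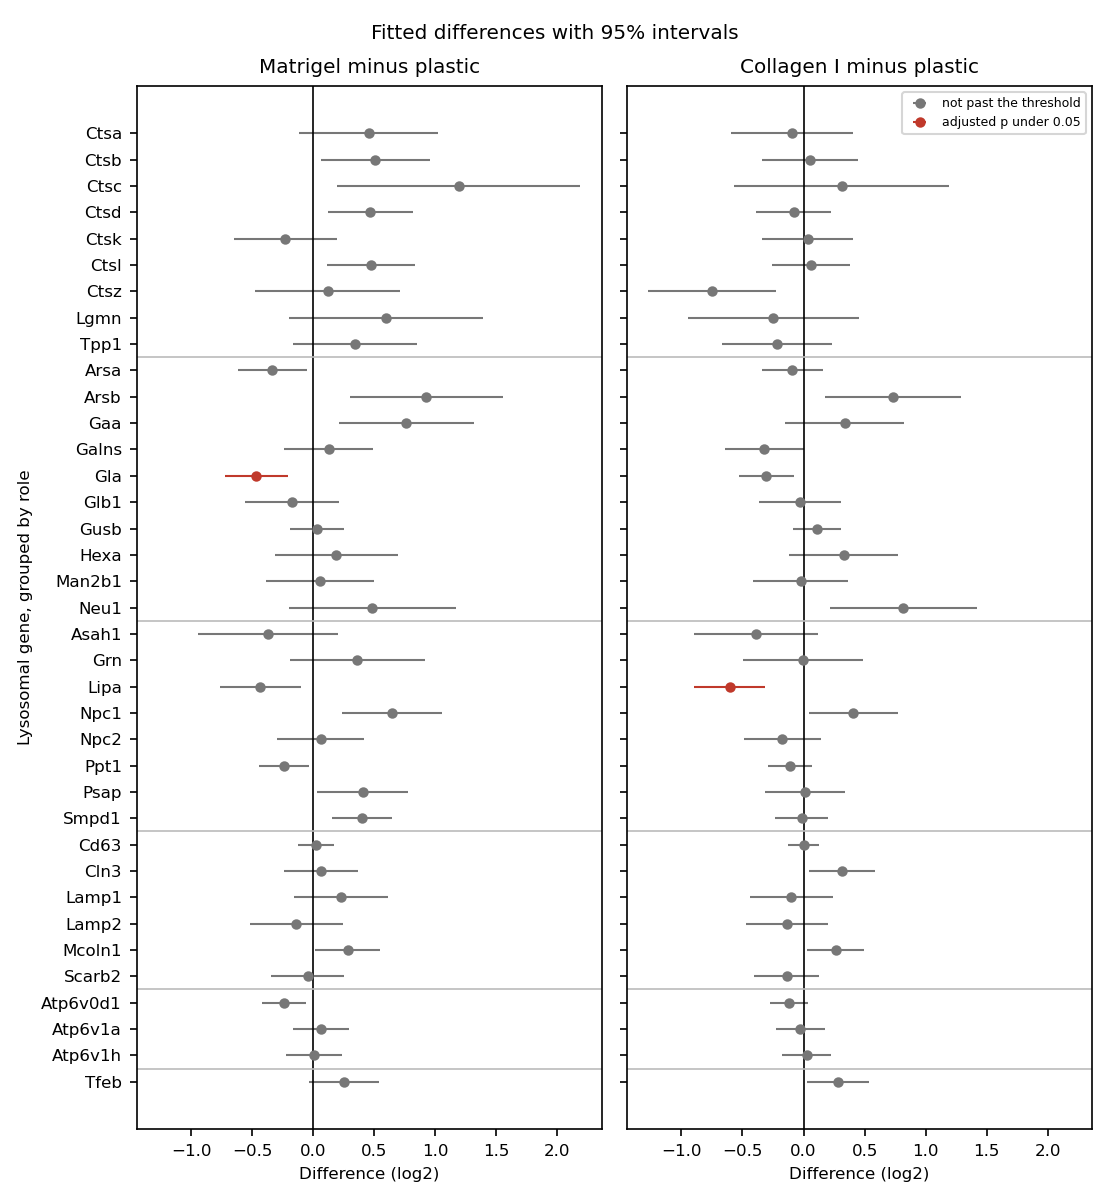
Fitted difference of each of the 37 lysosomal genes (points, log2) with its 95% interval (bars), for Matrigel minus plastic (left) and collagen I minus plastic (right), grouped from top to bottom into proteases, glycan hydrolases, lipid-handling proteins, membrane proteins, proton pump and regulator. Gla on Matrigel and Lipa on collagen I are the genes past the threshold, and the widest intervals are those of Ctsc.

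On plastic the spread between arrays was wide for many of the 37 genes. Their median SD over the 4 plastic arrays was 0.27, against 0.12 over all genes, and 30 of 37 lay above that median of all genes, with Cd63, Gusb and Atp6v1h lowest among the others. In 31 of the 37 both plastic arrays A and S, the letters that Matrigel also carries, stood above both P and Z, an order that 16.4% of all genes showed, and 0 of 37 showed the opposite order, found in 18.8% of all genes. The plastic array S held the highest plastic value in 29 of the 37 genes, and the lowest lay in P for 19 and in Z for 18. The mean of the 9 proteases was 10.27 on plastic array A, 9.79 on P, 10.58 on S and 9.81 on Z. It was 10.12, 9.97 and 9.93 on collagen arrays A, P and Z and 10.36 and 10.73 on Matrigel arrays A and S. The S plastic array thus exceeded the A Matrigel array for this group. The spread ran the same way in macrophage markers: 21 of the 26 also had A and S above P and Z on plastic, where their mean was 6.54, 5.74, 6.92 and 5.86 on A, P, S and Z. The Cd68 values on those arrays were 8.99, 7.83, 9.56 and 8.27. On collagen I the markers and the lysosomal genes did not run in the same order, since the macrophage mean was highest on Z (6.53, against 5.68 and 5.67 on A and P) and the mean of all 37 genes lowest there (8.83, against 8.99 and 8.88). The macrophage mean of each array was also entered in the fit as a covariate. The median difference of the 37 genes on Matrigel against plastic was then -0.00, against 0.13 without it. Lipa was the 1 gene that passed (-0.67, adjusted p = 0.0173), beside 5.56% of all genes. With the title letter as a fixed block and no macrophage term the median was -0.00 as well. With only shared letters kept it was 0.03. On collagen I the fit with the macrophage covariate called 4 of the 37 genes, beside 5.75% of all genes. Neu1 was higher by 1.02 (adjusted p = 0.0146) and Npc1 by 0.52 (adjusted p = 0.0398), with Ctsz (-0.55, adjusted p = 0.0162) and Lipa lower. The covariate was measured on the same arrays, and it holds Laptm5, which is also listed below among further lysosomal membrane genes. It stood at 6.82 and 7.20 on Matrigel against 5.74 to 6.92 on plastic, so covariate and surface are partly mixed in this fit. Whether macrophages or the stellate cells supplied the RNA cannot be told apart.

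**Figure D2:**
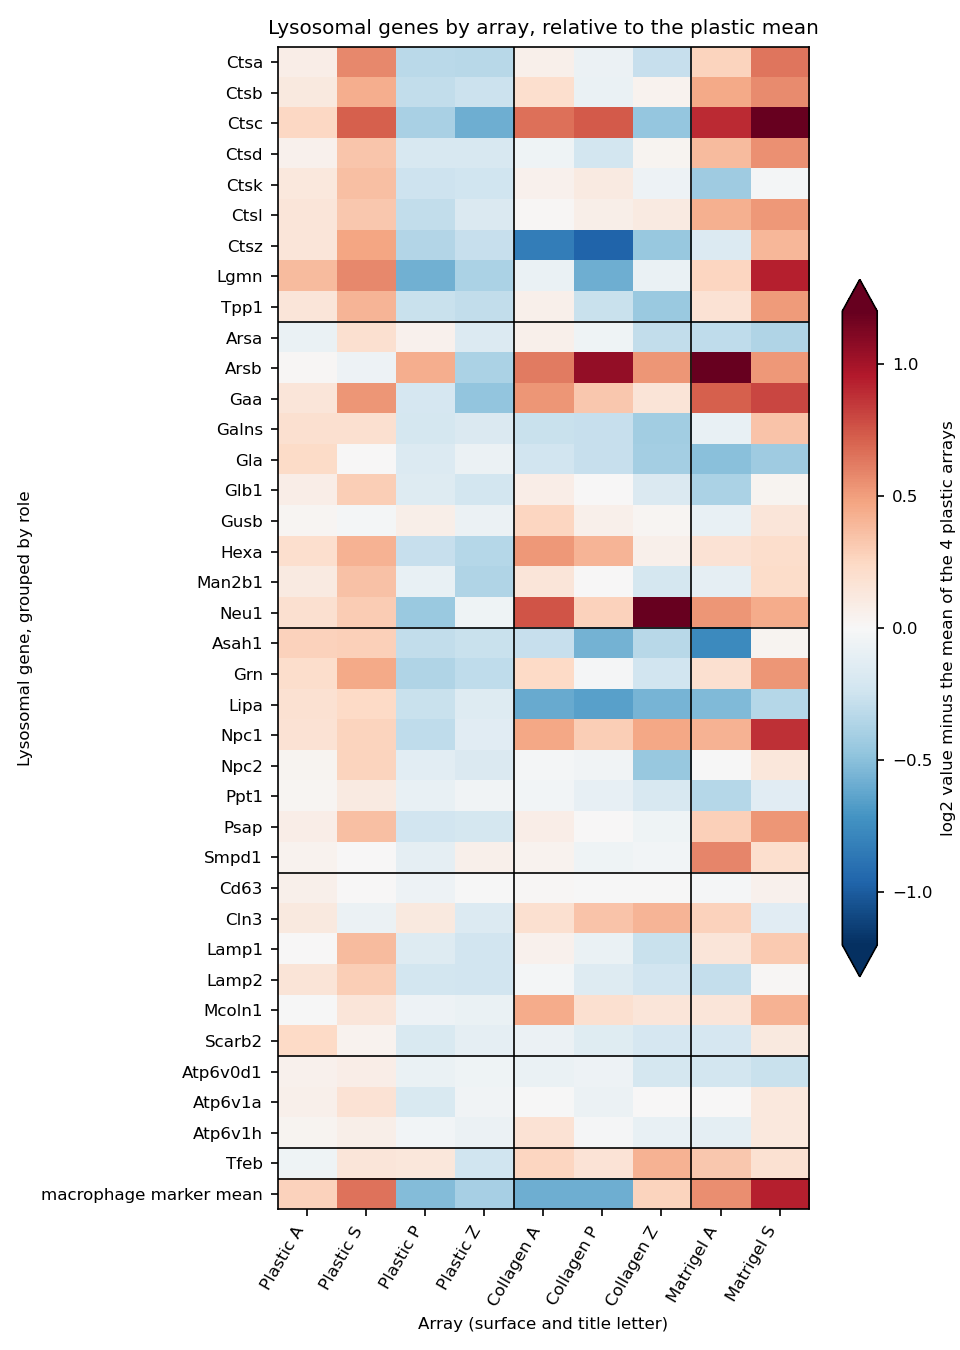
Log2 value of each lysosomal gene on each array minus its mean over the 4 plastic arrays (colour, red higher and blue lower), with plastic arrays ordered A, S, P, Z and lines between roles and between surfaces; the bottom row is the mean of 26 macrophage markers. Most rows are red on plastic A and S and blue on plastic P and Z, as in 31 of 37 genes, and the Matrigel columns stem from letters A and S only.

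Among the cathepsins and other proteases, 8 of 9 had a positive difference on Matrigel against plastic (median 0.47). By limma 0 of 9 passed (10.4% of all genes), while 4 had an unadjusted p under 0.05 (24.1% of all genes). Ctsb, the gene of the abundant cysteine protease cathepsin B, measured 12.19, 11.79, 12.51 and 11.82 on plastic A, P, S and Z, 12.28, 12.00 and 12.12 on collagen A, P and Z, and 12.53 and 12.64 on Matrigel A and S. The Matrigel values did not overlap the plastic ones, yet they exceeded plastic S by little: the difference was 0.33 within letter A and 0.13 within letter S, against 0.51 ± 0.20 (SE) over all arrays (adjusted p = 0.154). Ctsd, the aspartic protease cathepsin D, and Ctsl, the collagen- and elastin-cleaving cathepsin L, likewise lay wholly above plastic on Matrigel, with differences of 0.47 ± 0.15 (adjusted p = 0.0987) and 0.47 ± 0.16 (adjusted p = 0.105). Within letters their differences were 0.33 and 0.22 for Ctsd and 0.28 and 0.20 for Ctsl. Each Matrigel array thus stood above the plastic array of its letter for these genes, by less than the fit over all arrays gave. Letters were not read as pairs between Matrigel and plastic, so these are differences of single arrays. Without the plastic array S all of Ctsb, Ctsd and Ctsl passed (adjusted p = 0.0304, 0.0216 and 0.0302), as did Gaa, Npc1 and Psap. In that fit 6 of 37 genes were called higher and 0 lower, beside 10.1% of all genes (620 higher and 841 lower). Array S held the highest plastic value of each of these 6 genes. Leaving it out was bound to raise their differences, so the calls are not separate support.

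Ctsc, which encodes cathepsin C, the activator of leukocyte granule proteases, spread most. It measured 8.62, 7.98, 9.09 and 7.79 on plastic A, P, S and Z, 9.03, 9.11 and 7.91 on collagen A, P and Z, and 9.26 and 9.86 on Matrigel A and S. Matrigel was 1.19 ± 0.44 higher than plastic, with a 95% interval from 0.19 to 2.19, and did not pass (adjusted p = 0.135). Ctsk, the collagenolytic cathepsin K of osteoclasts and fibroblasts, was the one protease with a negative difference on Matrigel, -0.23 ± 0.19 (adjusted p = 0.535). It was lower on Matrigel within A by -0.55 and within S by -0.38. Ctsz, cathepsin Z, measured 9.25, 8.76, 9.58 and 8.83 on plastic A, P, S and Z, 8.27, 8.14 and 8.65 on collagen A, P and Z, and 8.94 and 9.50 on Matrigel A and S. All 3 collagen values lay below all plastic values, and the difference of -0.75 ± 0.23 did not pass (adjusted p = 0.107). It was -0.98, -0.62 and -0.19 within A, P and Z. Ctsa, the protective protein of beta-galactosidase and neuraminidase, the asparaginyl protease gene Lgmn and the tripeptidyl peptidase gene Tpp1 overlapped between plastic and each matrix, with adjusted p from 0.320 to 0.875.

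Among 10 glycan, sulfate and glycogen hydrolases, Gla was lower on Matrigel. In the fit without letters the others did not pass on either matrix. With the letter as a fixed block Gaa and Neu1 passed on collagen I (adjusted p = 0.0386 and 0.0432) and Arsb on Matrigel (adjusted p = 0.0271). Gla (Entrez gene 363494) encodes alpha-galactosidase A, which removes terminal galactose from glycolipids and is deficient in Fabry disease. It measured 8.83, 8.43, 8.60 and 8.53 on plastic A, P, S and Z, 8.37, 8.32 and 8.19 on collagen A, P and Z, and 8.09 and 8.17 on Matrigel A and S. Both matrices lay wholly below plastic, and Matrigel wholly below collagen I. The fall on Matrigel was 0.46 ± 0.11 on the log2 scale (95% interval -0.72 to -0.21, adjusted p = 0.0339 by limma), 1.38-fold. On collagen I the difference was -0.30 ± 0.10 and did not pass (adjusted p = 0.129). Gla differed by -0.74 and -0.43 within letters A and S on Matrigel, and by -0.46, -0.11 and -0.34 within A, P and Z on collagen I. The Matrigel call was lost without collagen array P, either Matrigel array, or plastic array S or Z (adjusted p from 0.0573 to 0.167), and in 10 of 22 alternatives in all.

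Neu1, Gaa and Arsb had positive differences on both matrices that did not pass in the fit without letters. Neu1, which encodes lysosomal sialidase, measured 7.10, 6.47, 7.21 and 6.86 on plastic A, P, S and Z, 7.66, 7.18 and 8.33 on collagen A, P and Z, and 7.44 and 7.35 on Matrigel A and S. The difference on collagen I was 0.82 ± 0.26 (adjusted p = 0.129), and within letters it was 0.56, 0.72 and 1.47. Gaa, which breaks down lysosomal glycogen, measured 9.11, 8.77, 9.50 and 8.50 on plastic, 9.50, 9.29 and 9.12 on collagen I, and 9.69 and 9.77 on Matrigel, in the same letter order. Its Matrigel values lay above all plastic values (0.76 ± 0.24, adjusted p = 0.0907), whereas collagen I overlapped plastic although each letter was higher on collagen I, by 0.39, 0.52 and 0.62. Arsb, arylsulfatase B, which desulfates dermatan and chondroitin sulfate, measured 7.08, 7.50, 7.00 and 6.68 on plastic, 7.69, 8.12 and 7.59 on collagen I, and 8.40 and 7.58 on Matrigel. No matrix value reached down to the plastic range, and the differences were 0.93 ± 0.28 on Matrigel (adjusted p = 0.0717) and 0.73 ± 0.24 on collagen I (adjusted p = 0.137). A second probe set of Arsb gave 1.01 and 0.73. With the mean of all entries of a gene Arsb passed on Matrigel (adjusted p = 0.0492 by limma). It also passed there with only genes above the 40th percentile (adjusted p = 0.0485) and with the letter as a random block (adjusted p = 0.0447). Of the remaining hydrolases, Arsa, arylsulfatase A, was lower on Matrigel in each array (-0.34 ± 0.12, adjusted p = 0.136), and Galns, the sulfatase of keratan sulfate, lower on collagen I in each array (-0.32 ± 0.14, adjusted p = 0.264). Glb1 (beta-galactosidase), Gusb (beta-glucuronidase), Hexa (the hexosaminidase alpha chain) and Man2b1 (alpha-mannosidase) overlapped plastic on both matrices, with differences from -0.17 to 0.33.

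Lipa led the 8 genes of lipid handling, and it was lower on collagen I. Lipa (Entrez gene 25055) encodes the acid lipase that hydrolyses cholesteryl esters and triglycerides in the lysosome. It measured 9.21, 8.75, 9.26 and 8.87 on plastic A, P, S and Z, 8.42, 8.37 and 8.46 on collagen A, P and Z, and 8.50 and 8.68 on Matrigel A and S. The collagen values were close together and, like those on Matrigel, wholly below plastic. The fall on collagen I was 0.60 ± 0.13 (95% interval -0.90 to -0.31, adjusted p = 0.0278 by limma), 1.52-fold. The Matrigel difference was -0.43 ± 0.15 (adjusted p = 0.105), and within letters A and S it was -0.71 and -0.58. On collagen I Lipa differed by -0.79, -0.38 and -0.41 within A, P and Z. The collagen call was lost without any 1 of the 3 collagen arrays, or without plastic array A or S (adjusted p from 0.0539 to 0.103), and in 7 of 22 alternatives in all. These 7 count the fit without plastic array S again as the fit with shared letters only.

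Npc1, the membrane transporter that moves cholesterol out of the lysosome, ran opposite to Lipa. It measured 7.79, 7.31, 7.88 and 7.48 on plastic A, P, S and Z, 8.08, 7.91 and 8.08 on collagen A, P and Z, and 8.03 and 8.49 on Matrigel A and S. Both matrices lay wholly above plastic, by 0.64 ± 0.18 on Matrigel (adjusted p = 0.0589) and 0.41 ± 0.16 on collagen I (adjusted p = 0.204). Neither passed in the fit without letters, and the collagen difference passed with the letter as a block (adjusted p = 0.0300). The Matrigel difference passed with quantile normalization applied again (adjusted p = 0.0434 by limma) and with only genes above the 40th percentile (adjusted p = 0.0402). It also passed with the letter as a random block (adjusted p = 0.0493) and without plastic array S, and in no other alternative. Npc2, the soluble partner of Npc1, overlapped plastic on both matrices (0.06 ± 0.16 and -0.17 ± 0.14). Smpd1, the acid sphingomyelinase gene, measured 9.25, 9.10, 9.21 and 9.27 on plastic, 9.25, 9.15 and 9.18 on collagen I, and 9.80 and 9.42 on Matrigel. Matrigel stood apart from both other surfaces, by 0.40 ± 0.11 from plastic (adjusted p = 0.0517) and 0.41 ± 0.11 from collagen I (adjusted p = 0.107). With all arrays kept, Smpd1 passed against plastic with quantile normalization applied again (adjusted p = 0.0228 by limma) and with only genes above the 40th percentile (adjusted p = 0.0369). It also passed with trend and robust moderation (adjusted p = 0.0463) and with the letter as a random block (adjusted p = 0.0368). Without the Matrigel array S the differences of Smpd1 were 0.59 from plastic and 0.60 from collagen I. They rest on the 1 remaining Matrigel array, whose spread is then assumed to be that of the other groups. The palmitoyl-protein thioesterase gene Ppt1 was lower on Matrigel in each array (-0.24 ± 0.09, adjusted p = 0.144), and the acid ceramidase gene Asah1, the saposin precursor gene Psap and the progranulin gene Grn overlapped plastic on both matrices (adjusted p from 0.170 to 0.994).

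Collagen and plastic arrays were read as pairs by letter, a meaning that the labels do not give. The letter as a block gave more calls on collagen I. Keeping only shared letters, which left out plastic array S and paired no arrays, gave 0 of 37 (5.05% of all genes). With the letter as a block 4 of the 37 genes passed against 1 without it, while the share of all genes rose from 6.12% to 7.39%. That fit held all 9 arrays, so the Matrigel arrays also took the terms of letters A and S. Its collagen differences are therefore not those of collagen and plastic pairs alone. Lipa fell by 0.53 in that fit, and Npc1 rose by 0.52 ± 0.10 (adjusted p = 0.0300), Gaa by 0.48 ± 0.10 (adjusted p = 0.0386) and Neu1 by 0.88 ± 0.18 (adjusted p = 0.0432). All 3 letters were higher on collagen I for 14 of 37 genes (18.2% of all genes) and lower for 7 (21.8% of all genes). On Matrigel, where letters were not read as pairs, both letters were higher for 14 of 37 genes (27.3% of all genes) and lower for 14 (30.8% of all genes). With the letter as a fixed block 3 of 37 passed there (Gla, Lipa and Arsb), beside 10.4% of all genes. Groups did not overlap upward for 10 genes on Matrigel against plastic (13.6% of all genes) and downward for 5 (16.6%), and on collagen I against plastic upward for 4 (8.04%) and downward for 4 (9.2%). Between Matrigel and collagen I, 15 genes were higher on Matrigel without overlap (13.0% of all genes) and 3 lower (16.4%).

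**Figure D3:**
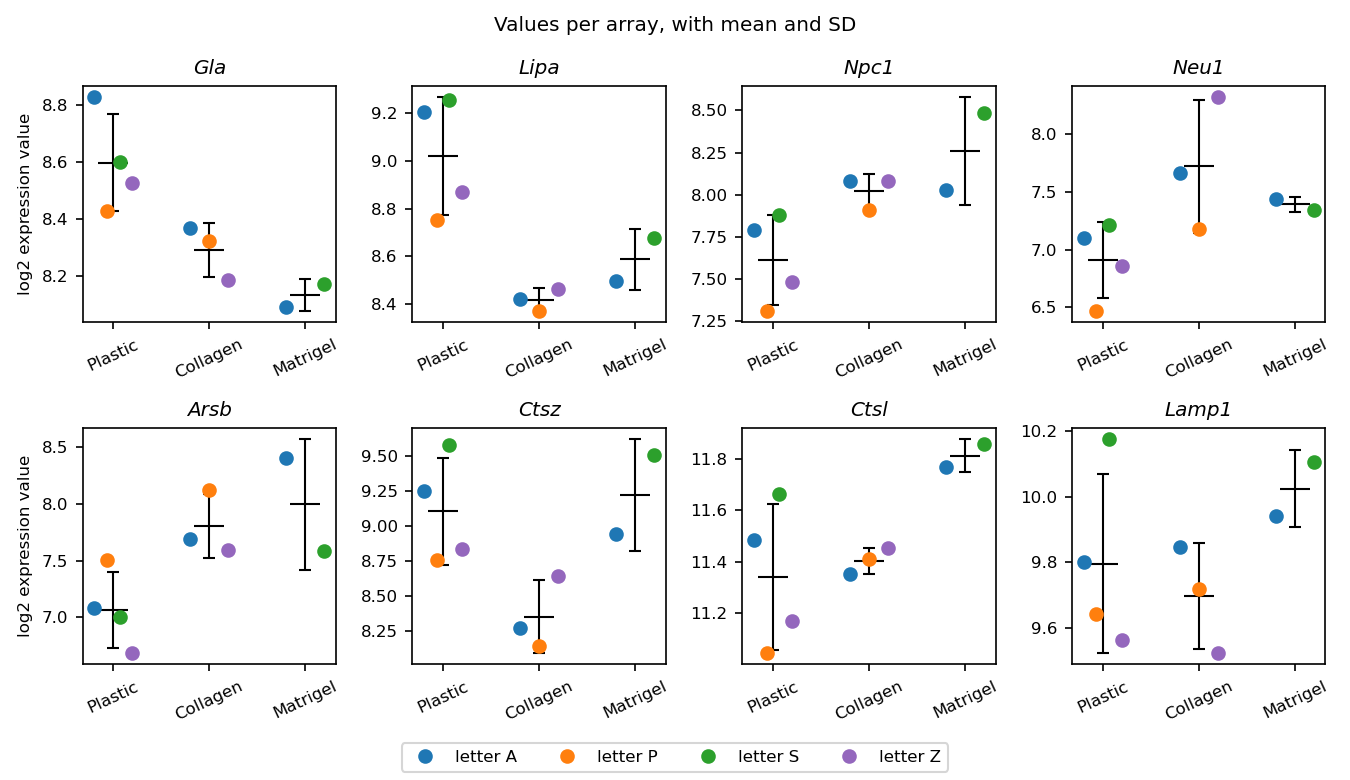
Log2 value on each array (points, coloured by title letter) for 8 lysosomal genes on plastic, collagen I and Matrigel, with the mean and SD of each surface in black; each panel has its own scale, which does not start at 0. Gla and Lipa lie below plastic on both matrices and Npc1 and Arsb above it, whereas the Lamp1 values on Matrigel lie within the range on plastic.

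**Figure D4:**
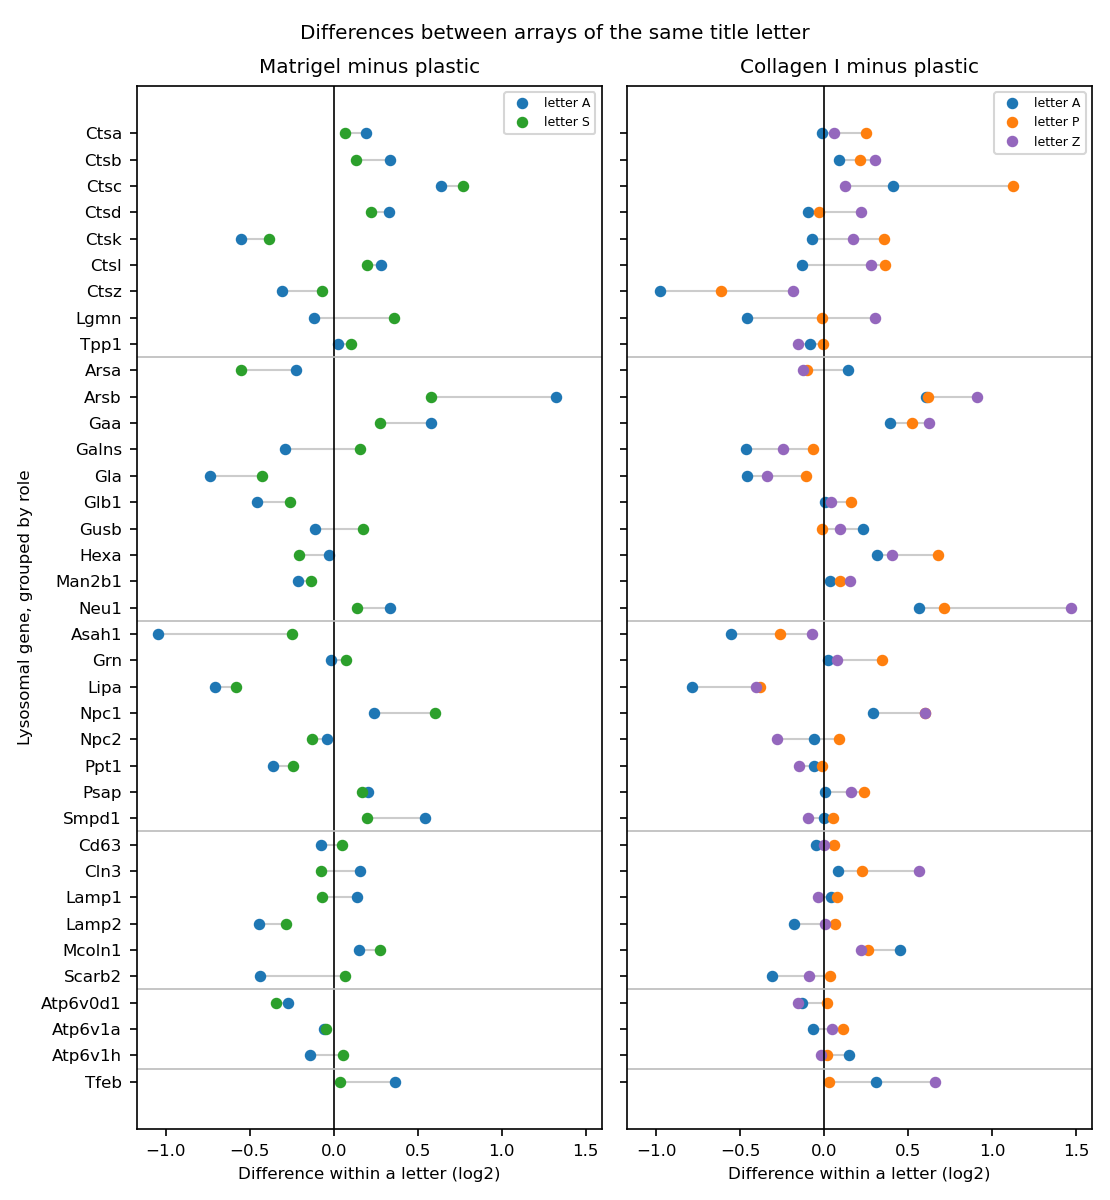
Difference between arrays of the same title letter (points, log2), for Matrigel minus plastic (letters A and S) and collagen I minus plastic (letters A, P and Z), for each of the 37 genes by role. Genes whose points all lie on 1 side of 0 number 14 higher and 14 lower on Matrigel and 14 higher and 7 lower on collagen I. Letters were not read as pairs between Matrigel and plastic.

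Membrane proteins, the proton pump and the regulator Tfeb did not pass on either matrix in the fit without letters. For the 6 membrane proteins the differences ran from -0.14 to 0.28 on Matrigel and from -0.14 to 0.31 on collagen I. By limma 0 passed, and 1 and 2 had an unadjusted p under 0.05, beside 24.1% and 19.0% of all genes. Cd63, a tetraspanin of late endosomes, lay between 10.91 and 11.04 on all 9 arrays and had the narrowest interval of the 37 genes, with a half-width of 0.15 on Matrigel. Lamp1, the major membrane glycoprotein whose promoter holds 5 E-box cores, measured 9.80, 9.64, 10.18 and 9.56 on plastic A, P, S and Z, 9.84, 9.72 and 9.52 on collagen A, P and Z, and 9.94 and 10.11 on Matrigel A and S. Its plastic range spanned the Matrigel values, and the difference was 0.23 ± 0.17 (adjusted p = 0.483). Lamp2, its relative needed for chaperone-mediated autophagy, differed by -0.14 ± 0.17 on Matrigel and -0.14 ± 0.15 on collagen I, and Scarb2, the receptor that carries glucocerebrosidase to lysosomes, by -0.04 ± 0.13 and -0.14 ± 0.12. Mcoln1 and Cln3 had positive differences that did not pass on either matrix (adjusted p from 0.184 to 0.836). Of the proton pump subunits, Atp6v0d1 was lower on Matrigel in both arrays (-0.24 ± 0.08, adjusted p = 0.0949), and Atp6v1a and Atp6v1h differed by 0.06 ± 0.10 and 0.01 ± 0.10. Atp6v0d1 passed only with re-centred arrays (-0.30, adjusted p = 0.0428 by limma), where the median difference of all genes was -0.07. Tfeb measured 4.76, 4.94, 4.95 and 4.57 on plastic, 5.07, 4.97 and 5.22 on collagen I, and 5.13 and 4.99 on Matrigel, wholly above plastic on both matrices by 0.25 ± 0.12 (adjusted p = 0.262) and 0.28 ± 0.11 (adjusted p = 0.204).

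Outside the 37 genes, 155 further genes of lysosomal proteases, hydrolases, membrane proteins, pump subunits, sorting, TFEB signalling, autophagy and protease inhibitors were measured. Of these 10 rose and 7 fell on Matrigel against plastic (17 in all, beside 10.4% of all genes). On collagen I 5 rose and 5 fell (10 in all, beside 6.12%), and on Matrigel against collagen I 5 rose and 1 fell (6 in all, beside 2.67%). The prolylcarboxypeptidase gene Prcp, a lysosomal serine protease, fell on both matrices, by 0.98 ± 0.08 (adjusted p = 0.000529) on Matrigel and 0.67 ± 0.07 (adjusted p = 0.00131) on collagen I. The lysosomal phospholipase gene Pla2g15 measured 7.96, 7.94 and 7.95 on collagen I against 6.54 to 6.95 on plastic, a rise of 1.21 ± 0.09 (adjusted p = 0.00033), and 7.09 and 6.98 on Matrigel. The adaptor gene Ap3m1, which sorts membrane proteins to lysosomes, fell by 0.93 ± 0.14 on Matrigel (adjusted p = 0.00465), and the iron transporter gene Slc11a2 rose by 0.67 ± 0.11 on collagen I (adjusted p = 0.0106). Rptor and Tsc2, of the nutrient-sensing complexes that control TFEB, rose by 0.59 ± 0.09 and 0.51 ± 0.08 on Matrigel (adjusted p = 0.00422 and 0.00504), and the autophagy kinase gene Ulk1 fell by 0.48 ± 0.08 on collagen I (adjusted p = 0.00835). These 8 calls held without each array in turn. Of the pump subunits Atp6v0a1 rose on Matrigel by 0.77 ± 0.19 (adjusted p = 0.0338), a call lost without either of collagen arrays A and P, Matrigel array S, or plastic array A, P or Z (adjusted p up to 0.197). Among the membrane proteins Laptm5, a leukocyte gene also counted with the macrophage markers, rose by 1.62 ± 0.34 on Matrigel (adjusted p = 0.0200), and this was lost without either Matrigel array or plastic array P (adjusted p up to 0.130). Mitf, a relative of Tfeb, rose by 0.48 ± 0.13 on Matrigel (adjusted p = 0.0464), and 1 of 9 fits that each left out an array kept that call.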

How the data were processed

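The deposited log2 values, 1 column per array, were made by the authors with RMA (background correction, quantile normalization, probe set summary); RMA is named per the submitters' processing notes. For software, version and build: not given in the sources used here. Quantile normalization sets all arrays to 1 distribution and can shrink shifts shared by most genes. Of 29215 entries 15310 had 1 gene symbol in the array's probe table, 323 several and 13582 none. The entry with the highest mean was kept for each of 14506 genes, leaving out 804. Identifiers of 14480 of them matched the RefSeq gene table.

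The fit used limma 3.58.1 (R 4.3.3) on all 9 arrays together, each surface having its own mean, with 6 residual degrees of freedom, empirical Bayes moderation and Benjamini-Hochberg adjustment over all genes; a call is an adjusted p under 0.05. Intervals are 95% and unadjusted. The script was tested on simulated data. The members and lists were chosen with earlier results of these data known. The rule for naming took all 37 genes, up to 4 called genes per further list, of which a part is printed, and fixed cell type markers. Replicates may be technical, so the p-values reflect no more than the spread among these arrays, whose number limits the precision.

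Deviations of collagen and plastic arrays from their surface means, compared at the same letter, correlated at r = 0.196, 0.234 and 0.269 across genes, which are not independent, so letters were read as pairs there. Collagen A correlated more with plastic S (0.243) than with its own letter. Between Matrigel and plastic they were -0.131 for A and 0.406 for S. The 2 Matrigel arrays deviate from their own mean equally and oppositely. These 2 values are therefore not separate checks and cannot decide the pairing. Letters were not read as pairs between Matrigel and plastic. The fits with a letter block still gave the Matrigel arrays their letters, as all arrays were in them. Alternatives covered entry choice, re-centring, quantile normalization applied again, a filter on level, every entry tested, 2 groups only, moderation, array weights, letter blocks, a minimum of 1.5-fold, a macrophage covariate, shared letters and leaving out each array. For collagen I against plastic some of these coincide. There shared letters only is the fit without plastic array S, and 2 groups only gives the results of leaving out either Matrigel array.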

Additional observations from a re-analysis of the deposited data

Results flagged for a closer look

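Among 71 named genes 1 had a plastic array far from the other 3: Slc11a2, an iron transporter of endosomes and lysosomes, measured 8.17, 7.92, 8.22 and 8.18 on plastic A, P, S and Z, so that the gap below the next value was 0.830 of the whole range. Chance alone gives about 1 such group in 20. None of the 37 lysosomal genes (0 of 37) had such an array.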

How the results depend on the processing

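The 37 genes kept their direction wherever they were called in any of the 22 alternatives. Between Matrigel and plastic, where 1 passed, 2 passed with the mean of all entries, with re-centred arrays, with trend and robust moderation and with shared letters only. With quantile normalization again 2 passed as well, Npc1 and Smpd1, both higher, while Gla was lost. There were 3 with the letter as a fixed replicate block (Gla, Lipa and Arsb), and 4 with it as a random replicate block or with only genes above the 40th percentile. By limma 0 passed with only the 2 groups, array weights or a minimum of 1.5-fold (13, 15 and 0 of 37 had an unadjusted p under 0.05). Leaving out each array gave 0 to 6: 6 without plastic S, 2 without plastic P or Matrigel S, and 0 without collagen P, Matrigel A or plastic Z (13, 9 and 11 at unadjusted p under 0.05). Of all genes 1504 passed there, 128 with the 1.5-fold minimum, 806 with the macrophage covariate and 628 with shared letters, and 759 to 1461 without each array (759 without Matrigel A, 989 without plastic A). Re-centring gave 512 genes higher and 1036 lower, against 655 and 849. Between collagen I and plastic, where 1 passed, 4 passed with the fixed replicate block or the macrophage covariate, 0 with the 1.5-fold minimum or shared letters (limma; 0 and 10 at unadjusted p under 0.05), and 0 to 1 without each array. Of all genes 888 passed there, 123 with the minimum, and 552 to 870 without each array (552 without plastic A, 555 without collagen P). Between Matrigel and collagen I, 387 genes passed, 257 with array weights, 66 with the replicate block, 19 with the covariate, 0 with only the 2 groups, the minimum or shared letters (limma; 2094, 208 and 2044 at unadjusted p under 0.05), and 68 to 352 without each array (352 without plastic S, and 255 or fewer without any other). Re-centring gave 122 higher and 259 lower there, against 176 and 211. Of the 37 genes 0 passed there, and 0 to 1 without each array (1, Smpd1, without Matrigel S). The causes were not tested.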
